A study of Mus musculus with 66 samples.

Results

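RNA and chromatin were compared across 3 cultures of mouse small intestinal organoids for 10 Wnt target and stem cell marker genes: Lgr5, Axin2, Ascl2, Smoc2, Cd44, Sox9, Ephb2, Ephb3, Olfm4 and Prom1. They were taken by symbol from the expression table, where they held 11 of 9481 transcripts (2 for Prom1, 1 for each other gene). All 11 were among the 9288 transcripts that passed the filter on low counts. In the table of DNA regions, 156 of 94469 had a start site of one of these genes as their nearest within 100 kb, and 15 of these overlapped the 500 bp on either side of a start site and are called promoter regions.

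The organoids carried a knock-in of GFP and the diphtheria toxin receptor at the Lgr5 locus in every culture. ENR was the reference medium, with EGF, Noggin and 5% R-Spondin-1 conditioned medium. The stem cell-enriched CV organoids received CHIR99021 at 3 µM and valproic acid at 1 mM on top of this, and the stem cell-depleted EN organoids received EGF and Noggin but no R-Spondin-1, for a shorter time than CV. The values used here came, for each culture, from 4 RNA-seq libraries, 4 ATAC-seq libraries and 1 ChIPmentation library for the factor Hnf4g. For each of the histone marks H3K27ac, H3K4me3 and H3K27me3 they came from 3 ChIPmentation libraries. The sample list names further libraries of each histone mark, for which no region scores were given, and the reason for this choice is not stated. Nothing in the labels says whether the libraries of a culture came from separate cultures or animals, so the p-values measure the spread between libraries, which may be technical.

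In the intestinal crypt, Wnt ligands bind Frizzled and Lrp receptors and keep β-catenin from being degraded, and β-catenin then acts with TCF/LEF factors on target genes. R-spondins bind Lgr receptors and keep Frizzled on the cell surface, which strengthens the signal, while CHIR99021 inhibits the kinase GSK3 and so stabilises β-catenin without a ligand. Valproic acid inhibits histone deacetylases. The genes described here include an R-spondin receptor, a feedback inhibitor, transcription factors, secreted proteins and surface proteins of crypt base cells.

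Total estimated counts of the 12 RNA libraries ran from 5630951 to 8859744, and no library was left out. Markers of other cell types moved with the cultures. In EN vs CV, where 35.2% of all transcripts were called higher and 41.2% lower, 14 of 15 enterocyte transcripts were higher and 1 lower, and their summed level, in counts scaled to the library total after TMM normalization (CPM), was 68860 to 71130 in EN, 11200 to 12660 in ENR and 9688 to 10170 in CV. All 6 goblet, 8 enteroendocrine and 5 tuft cell transcripts were higher in EN vs CV, all 19 proliferation transcripts were lower (summed CPM 212.8 to 229.4 in EN, 3048 to 3186 in ENR, 1946 to 2009 in CV), and of 10 transcripts of Paneth cells, the niche cells beside the stem cells, 7 were lower and 3 higher. Paneth transcripts summed to 2164 to 2451 CPM in EN, 7437 to 7883 in ENR and 3841 to 4335 in CV. Of 5 transcripts listed as mesenchymal and immune markers, 2 were higher in EN vs CV (Vim and Ptprc), and the 5 summed to at most 29.5 CPM in any library. Which cells these transcripts came from was not tested. The part of these shifts in the results below was not tested, and in bulk libraries fewer cells of a type and less RNA per cell cannot be told apart.

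RNA of every one of the 11 transcripts was lower in EN than in both other cultures. In EN vs ENR, which asks what follows when R-Spondin-1 is left out, 11 of 11 were called lower at an adjusted p under 0.01 (edgeR quasi-likelihood test, Benjamini-Hochberg over all transcripts), where 37.2% of all transcripts tested were called lower and 72.7% in either direction. In EN vs CV, 11 of 11 were called lower against a background of 41.2% lower and 76.4% in either direction. In CV vs ENR, which asks what CHIR99021 and valproic acid add, 4 were called higher, 5 lower and 2 were not called, against 30.2% of all transcripts called higher, 29.8% lower and 60% either way. That split was 3 higher and 6 lower with DESeq2 size factors and 3 higher and 1 lower on the spike-in scaled copy numbers. The median log2 fold change of the 11 transcripts was −3.33 in EN vs ENR, −3.78 in EN vs CV and −0.20 in CV vs ENR, and that of all transcripts was −0.01, −0.08 and −0.01. CPM values of the groups did not overlap for 11 of 11 transcripts in both EN comparisons, against 74.2% of all transcripts in EN vs ENR and 76.5% in EN vs CV, and for 10 of 11 in CV vs ENR, against 65.7%. The comparisons share libraries, so they are not independent of each other.

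**Figure D1:**
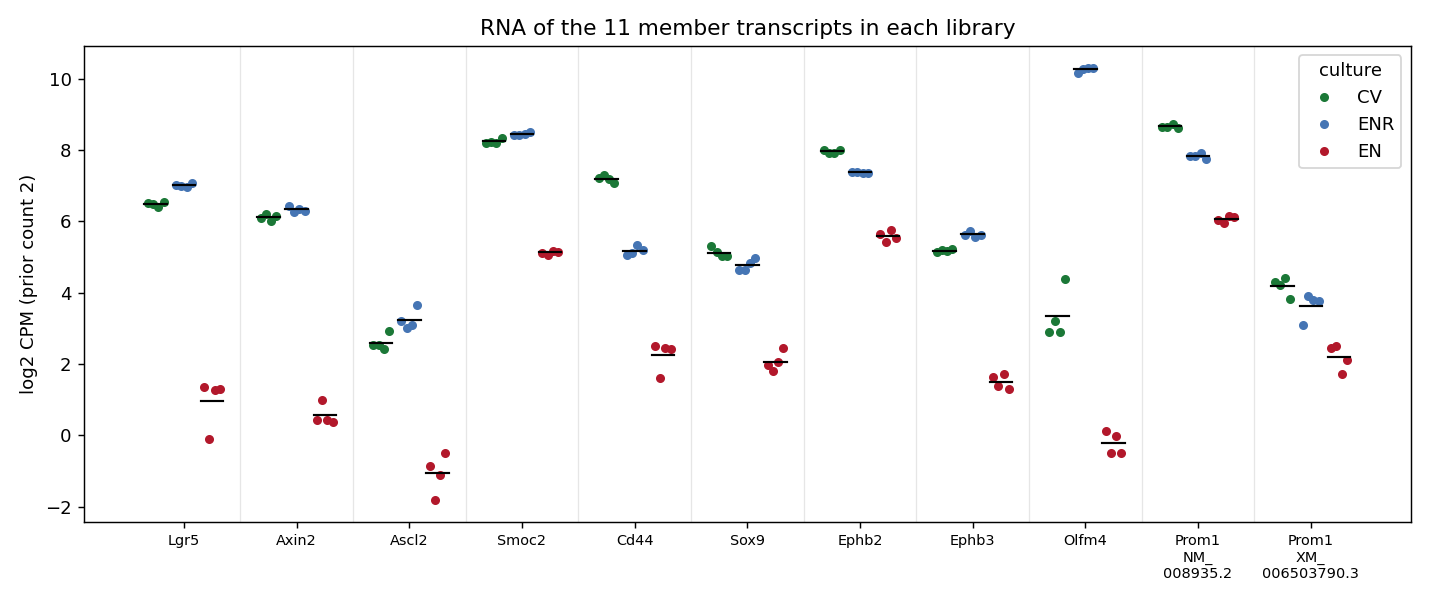
The log2 CPM with a prior count of 2 is plotted on the y axis for each of the 11 transcripts on the x axis, with 1 point per library and a line at the mean of the 4 libraries of CV (green), ENR (blue) and EN (red). EN points lie below all CV and ENR points for each transcript, and Olfm4 is the transcript with the widest gap between ENR and both other cultures.

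Per-length levels, given as the authors' TPM (reads scaled to transcript length and library total) averaged over 4 libraries, separated the genes into abundant and scarce markers. In ENR, Olfm4 was highest at 708 TPM, followed by Smoc2 at 187, Prom1 NM_008935.2 at 90.7, Lgr5 at 40.2, Axin2 at 29.2, Ephb2 at 21.7, Ephb3 at 17.5, Cd44 at 12.04, Sox9 at 9.65, Prom1 XM_006503790.3 at 4.20 and Ascl2 at 3.59. Between neighbours in that order the ranges over 4 libraries overlapped for Cd44 and Sox9 and for the last pair only. In CV, Smoc2 and Prom1 NM_008935.2 led at 181 and 180 TPM with overlapping ranges, and Olfm4 stood at 7.04. In EN, Prom1 NM_008935.2 at 23.8 TPM, Smoc2 at 16.6 and Ephb2 at 5.68 were the highest, followed by Cd44 at 1.37, and Lgr5, Axin2, Olfm4 and Ascl2 were at 0.514, 0.394, 0.307 and 0.0755.

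In chromatin, each region carried a normalized read score per library. In ATAC-seq, which measures DNA accessibility, 58 of the 156 regions were called lower and 14 higher in EN vs CV at an adjusted p under 0.05 (limma, Benjamini-Hochberg over all regions), against 15.6% lower and 19.6% higher over all regions. In EN vs ENR, 61 were called lower and 7 higher, against 12.5% and 11.6% over all regions. In CV vs ENR, 15 were called lower and 6 higher, against 10.7% and 5.11%. The median log2 fold change of the 156 regions in EN vs CV was −0.56, where that of all regions was 0.05.

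H3K27ac, a mark of active promoters and enhancers, was called lower at 25 of the 156 regions and higher at 1 in EN vs CV, against 1.96% lower, 5.07% higher and 7.03% either way over all regions, and 12 of the 15 promoter regions were among the 25. In EN vs ENR it was called lower at 8 regions, all 8 of them promoter regions, and higher at none, against 0.353% lower, 1.22% higher and 1.57% either way, with 34 regions at an unadjusted p under 0.05. The share called among promoter regions of all genes was not computed, so the promoter counts have no background of their own. H3K4me3, a mark of active start sites, was called lower at 18 of the 138 regions tested and higher at 1 in EN vs CV, against 2.15% lower, 2.75% higher and 4.9% either way. Against ENR, the EN counts for H3K4me3 were 9 lower and 6 higher, against 0.7%, 5.48% and 6.18% either way. In CV vs ENR, 2 regions were called higher in H3K27ac and none lower, against 0.541% and 1.29% (1.83% either way), and 3 were called higher and 1 lower in H3K4me3, against 1.1% and 0.027%. The median log2 fold change of all regions was itself off 0, at −0.14, 0.25 and 0.33 for H3K27ac in EN vs CV, EN vs ENR and CV vs ENR and at 0.09, 0.44 and 0.33 for H3K4me3, and that of the regions at these genes was −0.75, −0.26 and 0.43 for H3K27ac and −0.33, 0.00 and 0.33 for H3K4me3. After quantile normalization H3K4me3 was called lower at 19 regions and higher at 1 in EN vs ENR, and lower at 1 and higher at none in CV vs ENR.

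Several of these counts rest on single libraries. The 26 H3K27ac calls in EN vs CV were 14 without CV replicate 5, 15 without EN replicate 3 or 4 and 17 without EN replicate 2, and the 8 in EN vs ENR were 5 without any 1 of the ENR libraries or EN replicate 3 or 4. The 19 H3K4me3 calls in EN vs CV were 2 without EN replicate 2 and 11 without CV replicate 3, and the 15 in EN vs ENR were 8 without ENR replicate 1 or EN replicate 2 or 4 and 7 without ENR replicate 2 or 4. In CV vs ENR limma called 0 regions without ENR replicate 4 in H3K27ac (15 at an unadjusted p under 0.05) and in H3K4me3 (28 unadjusted), and 0 without CV replicate 5 in H3K27ac (20 unadjusted). Calls over all regions fell in these fits too. Without ENR replicate 4 they were 448 in place of 1723 for H3K27ac and 0 in place of 880 for H3K4me3. Without CV replicate 5 they were 1004 for H3K27ac. For H3K4me3 in EN vs CV they were 331 in place of 3812 without EN replicate 2.

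H3K27me3, the Polycomb mark of repressed genes, was called higher at 1 region and lower at none in EN vs CV, against 0.14%, 0.388% and 0.528% either way over all regions. Between EN and ENR limma called 0 of the 156 regions in H3K27me3 against 0.0127% of all regions, every one of those lower, and 34 had an unadjusted p under 0.05. Between CV and ENR limma called 0 against 0.74% either way and 0.532% lower, and 10 had an unadjusted p under 0.05. The share of all regions with an unadjusted p under 0.05 was not computed. Median log2 fold changes of the 156 regions in H3K27me3 were 0.56, 0.81 and 0.23 in EN vs CV, EN vs ENR and CV vs ENR. Those of all regions were 0.15, 0.44 and 0.32. The H3K27ac counts depend on how the spread was modelled. When it was not allowed to vary with the mean score, limma called 11 regions in EN vs CV in place of 26. In EN vs ENR it called 0 in place of 8, with 34 at an unadjusted p under 0.05. Over all regions the calls fell as well, from 6627 to 924 in EN vs CV and from 1480 to 1 in EN vs ENR.

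**Figure D2:**
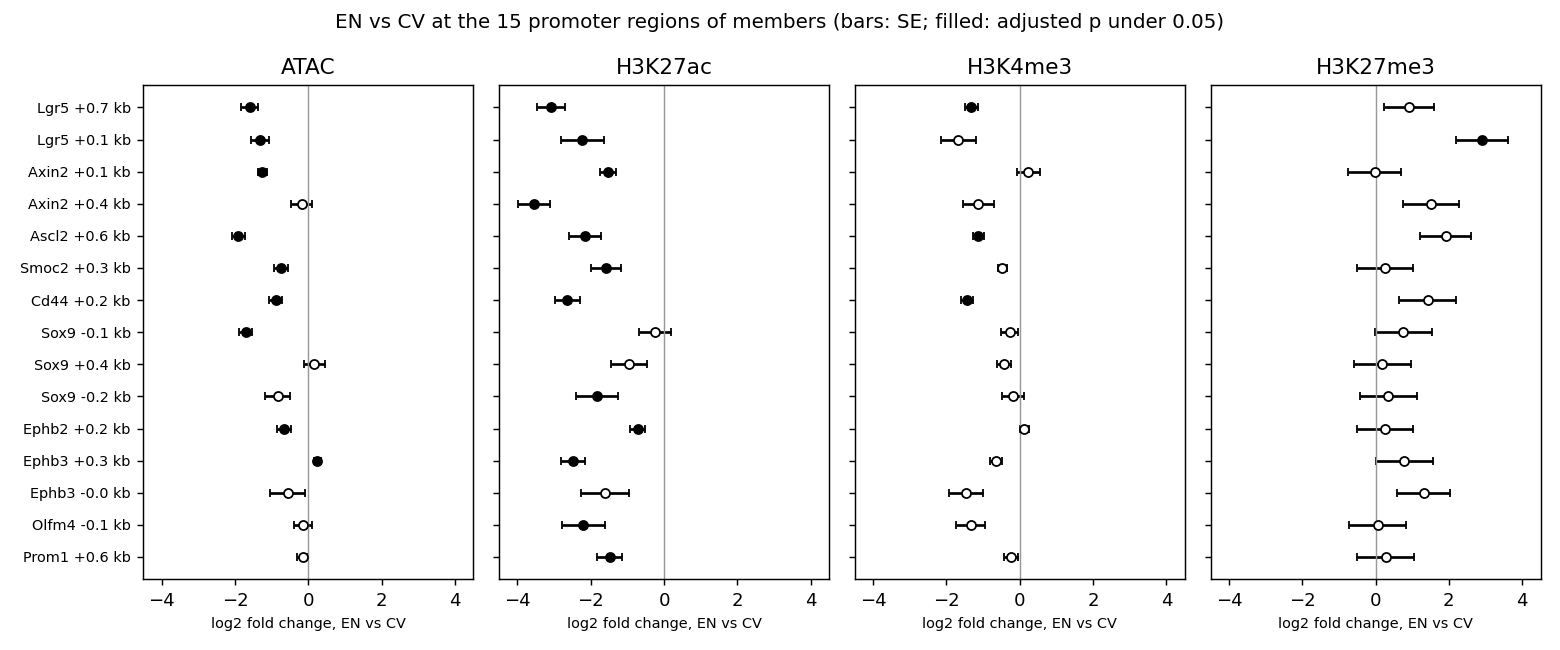
Fitted log2 fold changes in EN vs CV are plotted on the x axis for the 15 promoter regions on the y axis, named by gene and distance from its nearest start site in kb, in a panel each for ATAC, H3K27ac, H3K4me3 and H3K27me3. Bars are the standard error (SE) and filled points have a limma adjusted p under 0.05, which 12 promoter regions reach in H3K27ac and 3 in H3K4me3, all of them lower, and 1 in H3K27me3, the region at the Lgr5 start site, which is higher. No share called among promoter regions of all genes was computed for comparison.

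Lgr5 (NM_010195.2, chr10:114887367-115024836, minus strand, mm9) encodes a receptor for R-spondins and marks the crypt base columnar stem cells. Its RNA was 129, 127, 124 and 136 CPM in ENR, 90.7, 90.4, 85.2 and 94.0 CPM in CV, and 2.28, 0.642, 2.14 and 2.16 CPM in EN. Levels were highest in ENR and just lower in CV, and no culture overlapped another. The EN values rest on 3 to 17 estimated counts per library. The log2 fold change was −6.08 (SE 0.12) in EN vs ENR (edgeR adjusted p = 9.18e-16), −5.55 (SE 0.12) in EN vs CV (edgeR adjusted p = 1.9e-15) and −0.52 (SE 0.06) in CV vs ENR (edgeR adjusted p = 2.98e-06). On the spike-in scaled copy numbers the fall in CV vs ENR was not called.

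Chromatin at the start of Lgr5 moved in the direction of its RNA, and a region upstream moved the other way. A region in the Lgr5 gene body lay 0.7 kb from the nearest start site (chr10:115023230-115024435). H3K27ac there scored 92, 71 and 79 in CV, 57, 61 and 69 in ENR and 10, 7 and 9 in EN. This was a log2 fold change of −3.08 (SE 0.37) in EN vs CV (limma adjusted p = 1.12e-06). ATAC scores there were 57, 45, 41 and 57 in CV, 36, 41, 60 and 53 in ENR and 28, 15, 11 and 13 in EN (−1.59, SE 0.24, limma adjusted p = 4.01e-05). EN lay below both other cultures in each mark, while CV and ENR overlapped in ATAC. At the neighbouring region over the start site (chr10:115024468-115025077), H3K27me3 scored 25, 31 and 35 in EN against 7, 2 and 2 in CV and 3, 18 and 12 in ENR, the single H3K27me3 call in EN vs CV (2.90, SE 0.71, limma adjusted p = 0.0193). That call was lost with a spread not tied to the mean score (limma adjusted p = 0.254) and without CV replicate 2 (0.131) or 3 (0.142) or EN replicate 1 (0.0717), 2 (0.0517) or 4 (0.16), which are limma adjusted p-values. With a spread not tied to the mean score, limma called 0 of all regions in H3K27me3 in EN vs CV. A region 37.3 kb upstream of the start site (chr10:115061884-115062376) lay outside the Lgr5 gene body and was the most open in EN. ATAC scored 49, 42, 77 and 78 there, against 23, 24, 36 and 29 in ENR and 15 in each CV library (EN vs CV 1.92, SE 0.20, limma adjusted p = 1.11e-06). The difference was called in all 3 comparisons, and its direction was opposite to that of the RNA in EN. The 300 bases at the centre of the upstream region are shown because it changed against the direction of the RNA. Here and in the windows of the other genes, letters read by TCF/LEF factors (CTTTGAT or CTTTGAA on either strand) are in capitals.
Lgr5 −37.3 kb, chr10:115061981-115062280, mm9, plus strand: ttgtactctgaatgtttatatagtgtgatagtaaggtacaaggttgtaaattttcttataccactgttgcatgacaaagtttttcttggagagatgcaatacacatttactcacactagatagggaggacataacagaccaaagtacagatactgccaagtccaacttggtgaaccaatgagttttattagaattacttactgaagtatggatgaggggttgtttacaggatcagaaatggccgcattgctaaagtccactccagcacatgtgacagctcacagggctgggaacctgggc
This window held no TCF/LEF letters.

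Axin2 (XM_006532060.1, chr11:108781663-108812097, plus strand) encodes a scaffold of the complex that degrades β-catenin and is a feedback inhibitor of the pathway. Its RNA was 86.5, 77.1, 81.4 and 77.8 CPM in ENR, 68.1, 74.3, 64.0 and 70.6 CPM in CV, and 1.07, 1.71, 1.07 and 1.01 CPM in EN. EN was far below both other cultures, with log2 fold changes of −6.08 (SE 0.12) vs ENR (edgeR adjusted p = 8.65e-16) and −5.86 (SE 0.12) vs CV (edgeR adjusted p = 7.9e-16). CV lay just below ENR (−0.22, SE 0.06, edgeR adjusted p = 0.00399). This small difference turned its sign on the spike-in scaled copy numbers (0.02, limma adjusted p = 0.973) and was not called on TPM, with scaling to the spike-ins, or without CV replicate 1 (edgeR adjusted p = 0.0125) or 3 (0.0166) or ENR replicate 1 (0.0183) or 3 (0.0106).

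Of the 21 regions of Axin2, 16 were called less accessible and 1 more accessible in EN vs CV. A region in the gene body 13.2 kb from the nearest start site (chr11:108797450-108797964) was open in CV and ENR and at the bottom of the scale in EN. ATAC scores were 43, 36, 33 and 38 in CV, 33, 31, 27 and 35 in ENR and 2, 1, 2 and 2 in EN. The log2 fold change was −3.82 (SE 0.20) in EN vs CV (limma adjusted p = 6.27e-10), and CV and ENR were not told apart (0.24, SE 0.20, limma adjusted p = 0.474). At the promoter (chr11:108781422-108783103), H3K27ac scored 303, 188 and 200 in CV, 164, 342 and 276 in ENR and 68, 84 and 81 in EN (EN vs CV −1.53, SE 0.23, limma adjusted p = 3.27e-05). Its lowest p was at another promoter region (chr11:108783166-108783529). H3K27ac there scored 84, 63 and 49 in CV, 58, 47 and 42 in ENR and 5, 3 and 6 in EN (EN vs CV −3.55, SE 0.43, limma adjusted p = 1.22e-06). At a region 10.6 kb upstream (chr11:108770635-108771444), H3K4me3 was highest in CV: it scored 26, 33 and 30 in CV, 11, 8 and 9 in ENR and 1 in each EN library, and all 3 comparisons were called. The call in CV vs ENR (1.57, limma adjusted p = 0.0112) was lost without ENR replicate 4 (limma adjusted p = 0.0516), after quantile normalization (0.195) and with regions of a mean score of at least 5 (0.0558). It was also lost with a block on the replicate number, where limma called 0 of all regions in this comparison. The window 13.2 kb from the nearest start site is shown because it had the lowest ATAC p of the gene in EN vs CV.
Axin2 +13.2 kb, chr11:108797558-108797857, mm9, plus strand: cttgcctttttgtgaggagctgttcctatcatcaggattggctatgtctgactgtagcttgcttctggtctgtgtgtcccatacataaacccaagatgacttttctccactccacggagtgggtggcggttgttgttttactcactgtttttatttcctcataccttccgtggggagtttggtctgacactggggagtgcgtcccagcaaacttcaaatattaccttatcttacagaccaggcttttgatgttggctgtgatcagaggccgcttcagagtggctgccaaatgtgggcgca
This window held no TCF/LEF letters.

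Ascl2 (XM_011241984.2, chr7:150152727-150155169, minus strand), a basic helix-loop-helix transcription factor of crypt base stem cells, was the scarcest of the genes. It was 8.96, 7.85, 8.35 and 12.3 CPM in ENR and 5.53, 5.47, 5.04 and 7.35 CPM in CV, and EN had 2, 0, 1 and 3 counts. Set against a floor of 3 counts in the shallowest EN library, ENR was at least 14.6-fold and CV at least 9.10-fold higher than EN. CV was below ENR without overlap, but the difference missed the threshold (log2 fold change −0.68, 95% interval −1.10 to −0.27, edgeR adjusted p = 0.0102). DESeq2 called it (adjusted p = 0.0062), and so did edgeR without CV replicate 4 (0.00664) or EN replicate 2 (0.00503) or 4 (0.00821). Both of its regions were called less accessible in EN vs CV. At the promoter (chr7:150153770-150155401), ATAC scored 68, 55, 56 and 71 in CV, 59, 56, 47 and 50 in ENR and 14, 24, 13 and 14 in EN (−1.91, SE 0.18, limma adjusted p = 3e-07). H3K27ac there scored 33, 44 and 62 in CV, 50, 45 and 32 in ENR and 16, 7 and 7 in EN (−2.16, SE 0.44, limma adjusted p = 0.0016). At this promoter, accessibility and H3K27ac in CV and ENR overlapped and EN stood below both.

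Sox9 (NM_011448.4, chr11:112643538-112649074, plus strand), a transcription factor of crypt base and Paneth cells, was 39.1, 35.4, 32.3 and 32.2 CPM in CV libraries, 24.5, 24.7, 28.4 and 31.0 CPM in ENR libraries and 3.62, 3.21, 3.92 and 5.18 CPM in EN libraries. The log2 fold change was −3.10 (SE 0.14) in EN vs CV (edgeR adjusted p = 8.25e-12) and −2.74 (SE 0.14) in EN vs ENR (edgeR adjusted p = 5.69e-11). The higher level in CV than in ENR was small (0.35, SE 0.10, edgeR adjusted p = 0.00705), and it was not called with DESeq2 (adjusted p = 0.0143), with scaling to the spike-ins (edgeR adjusted p = 0.302), or without CV replicate 1 (0.0298) or 2 (0.0175) or ENR replicate 1 (0.0283), 2 (0.025) or 3 (0.0117). At the promoter region over the start site (chr11:112643086-112643789), ATAC scored 59, 49, 55 and 53 in CV, 68, 50, 54 and 57 in ENR and 20, 19, 11 and 15 in EN (EN vs CV −1.70, SE 0.18, limma adjusted p = 7.78e-07). H3K27ac was not called there (−0.24, SE 0.44, limma adjusted p = 0.814), nor at the next promoter region (−0.96, SE 0.49, limma adjusted p = 0.273), and was lower at the promoter region within the gene body (chr11:112645766-112645861, −1.83, SE 0.57, limma adjusted p = 0.0456). Its lowest p was 1.0 kb from a start site, in the gene body (chr11:112644283-112644697). H3K27ac there scored 61, 44 and 51 in CV, 23, 25 and 25 in ENR and 7, 9 and 13 in EN (EN vs CV −2.34, SE 0.44, limma adjusted p = 0.000573). Another region lay outside the Sox9 gene body, 50.9 kb downstream of the nearest Sox9 start site (chr11:112696510-112697317). ATAC there scored 61, 58, 54 and 51 in CV, 68, 67, 63 and 73 in ENR and 6, 2, 4 and 6 in EN (EN vs CV −3.45, SE 0.22, limma adjusted p = 4.66e-09). EN did not overlap either culture. H3K4me3 at the same region, chosen after its values were seen, scored 8, 12 and 16 in CV, 1, 2 and 2 in ENR and 4, 1 and 2 in EN. This distal window is shown because it is the region of Sox9 with the lowest ATAC p in EN vs CV.
Sox9 +50.9 kb, chr11:112696764-112697063, mm9, plus strand: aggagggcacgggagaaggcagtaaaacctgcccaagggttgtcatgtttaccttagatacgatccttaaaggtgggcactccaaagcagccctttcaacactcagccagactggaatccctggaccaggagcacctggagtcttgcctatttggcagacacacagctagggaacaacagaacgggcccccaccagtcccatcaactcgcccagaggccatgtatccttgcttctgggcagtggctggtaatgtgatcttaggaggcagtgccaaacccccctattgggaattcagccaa
This window held no TCF/LEF letters.

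Smoc2 (NM_022315.2, chr17:14416513-14541797, plus strand), a secreted matrix protein enriched in Lgr5 cells, was second only to Prom1 among the 10 genes in EN on the TPM scale. Its RNA was 344, 345, 350 and 362 CPM in ENR, 296, 300, 296 and 325 CPM in CV and 34.6, 33.2, 36.0 and 35.3 CPM in EN. The fall in EN was −3.33 (SE 0.05) vs ENR (edgeR adjusted p = 1.51e-16) on the log2 scale and −3.13 (SE 0.05) vs CV (edgeR adjusted p = 4.39e-17). CV and ENR differed by −0.20 (SE 0.04, edgeR adjusted p = 0.000175), a difference that was not called on TPM, copy numbers or with scaling to the spike-ins. Its promoter region lost accessibility (−0.75, SE 0.19, limma adjusted p = 0.00423) and H3K27ac (−1.58, SE 0.41, limma adjusted p = 0.0129) in EN vs CV.

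Olfm4 (XM_006519174.3, chr14:80400109-80422667, plus strand), a secreted glycoprotein of crypt base stem cells whose expression is known to depend on Notch signalling, was high in ENR alone. Its RNA was 1139, 1241, 1274 and 1264 CPM in ENR, 7.14, 8.94, 7.16 and 20.5 CPM in CV and 0.804, 0.428, 0.714 and 0.432 CPM in EN, where 2 libraries had 3 counts or fewer. CV was 110-fold below ENR (log2 fold change −6.78, SE 0.17, edgeR adjusted p = 1.26e-13), and CV replicate 4 stood above the other CV libraries. Without that library the difference from ENR was −7.31, and EN vs CV moved from −4.16 (SE 0.56, edgeR adjusted p = 4.7e-06) to −3.63. EN vs ENR was −10.94 (SE 0.27, edgeR adjusted p = 9.01e-15). Among the other genes CV vs ENR ranged from −0.68 for Ascl2 to 2.02 for Cd44.

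Accessibility near Olfm4 split into regions that followed its RNA and regions that did not. At a region 18.7 kb upstream (chr14:80381261-80381653), chosen after its values were seen, ATAC scored 31, 23, 32 and 35 in ENR, 3, 3, 3 and 2 in CV and 6, 3, 5 and 3 in EN (CV vs ENR −3.05, limma adjusted p = 1.09e-06). The promoter (chr14:80399731-80400330) was also most open in ENR, with overlap of CV and EN, at 33, 28, 40 and 36 in ENR, 14, 19, 16 and 14 in CV and 12, 25, 9 and 14 in EN (CV vs ENR −1.07, SE 0.24, limma adjusted p = 0.00526). It was the single promoter region of the 15 called in CV vs ENR in ATAC. A region 14.8 kb upstream (chr14:80385090-80385571), next to the first, was instead open in CV, at 39, 34, 26 and 43, intermediate in ENR, at 19, 16, 24 and 20, and low in EN, at 3, 4, 4 and 3 (EN vs CV −3.005, SE 0.21, limma adjusted p = 1.18e-08). CV was above ENR at this region (0.81, SE 0.21, limma adjusted p = 0.0137), a call lost without ENR replicate 2 (limma adjusted p = 0.0549). H3K27ac at the promoter did not separate CV, at 16, 10 and 24, from ENR, at 21, 11 and 17, and EN scored 7, 1 and 2. The neighbouring upstream windows are shown because CV and ENR differed in opposite directions at them.
Olfm4 −18.7 kb, chr14:80381308-80381607, mm9, plus strand: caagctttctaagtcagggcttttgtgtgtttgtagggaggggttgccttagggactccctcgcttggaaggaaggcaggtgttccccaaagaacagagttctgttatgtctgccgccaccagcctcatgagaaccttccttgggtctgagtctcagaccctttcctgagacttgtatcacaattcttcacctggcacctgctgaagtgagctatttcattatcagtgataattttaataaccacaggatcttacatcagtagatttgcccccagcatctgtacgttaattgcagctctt
Olfm4 −14.8 kb, chr14:80385181-80385480, mm9, plus strand: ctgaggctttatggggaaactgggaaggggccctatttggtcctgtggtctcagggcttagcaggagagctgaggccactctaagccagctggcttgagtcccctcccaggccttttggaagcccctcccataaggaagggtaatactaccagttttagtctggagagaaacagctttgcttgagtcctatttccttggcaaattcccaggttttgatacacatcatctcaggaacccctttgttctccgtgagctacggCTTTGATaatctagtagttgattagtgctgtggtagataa
The second window held 1 match to the TCF/LEF letters and the first held none.

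Cd44 (NM_001039151.1, chr2:102651298-102741822, minus strand), a hyaluronan receptor on crypt cells, had the largest rise in CV. It was 149, 158, 145 and 134 CPM in CV libraries, 33.0, 34.7, 40.4 and 36.2 CPM in ENR libraries and 5.36, 2.78, 5.17 and 5.04 CPM in EN libraries. CV was 4.06-fold above ENR (log2 fold change 2.02, SE 0.08, edgeR adjusted p = 1.13e-11), and EN was below ENR by −2.93 (SE 0.13, edgeR adjusted p = 9.32e-12). The rise in CV was called under each alternative run. At a region in the gene body 22.6 kb from the nearest start site (chr2:102718669-102719077), ATAC was also highest in CV. It scored 20, 23, 23 and 25 in CV, 6, 3, 4 and 5 in ENR and 1, 2, 5 and 5 in EN (CV vs ENR 2.14, SE 0.33, limma adjusted p = 0.00025). ENR and EN overlapped there. At the promoter, ATAC did not separate CV, at 36, 43, 32 and 46, from ENR, at 44, 39, 42 and 34 (−0.03, SE 0.18, limma adjusted p = 0.953), and H3K27ac scored 99, 129 and 92 in CV, 68, 66 and 61 in ENR and 22, 17 and 11 in EN (CV vs ENR 0.69, SE 0.34, limma adjusted p = 0.317; EN vs CV −2.64, SE 0.34, limma adjusted p = 3.66e-06). The window 22.6 kb from the nearest start site is shown because it was open in CV alone.
Cd44 +22.6 kb, chr2:102718724-102719023, mm9, plus strand: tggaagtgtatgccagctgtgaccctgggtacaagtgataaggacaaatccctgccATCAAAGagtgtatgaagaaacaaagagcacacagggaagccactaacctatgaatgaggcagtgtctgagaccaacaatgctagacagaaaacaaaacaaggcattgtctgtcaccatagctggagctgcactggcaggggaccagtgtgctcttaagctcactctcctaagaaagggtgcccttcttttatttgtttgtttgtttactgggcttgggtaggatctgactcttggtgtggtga
It held 1 match to the TCF/LEF letters, read from the minus strand.

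**Figure D3:**
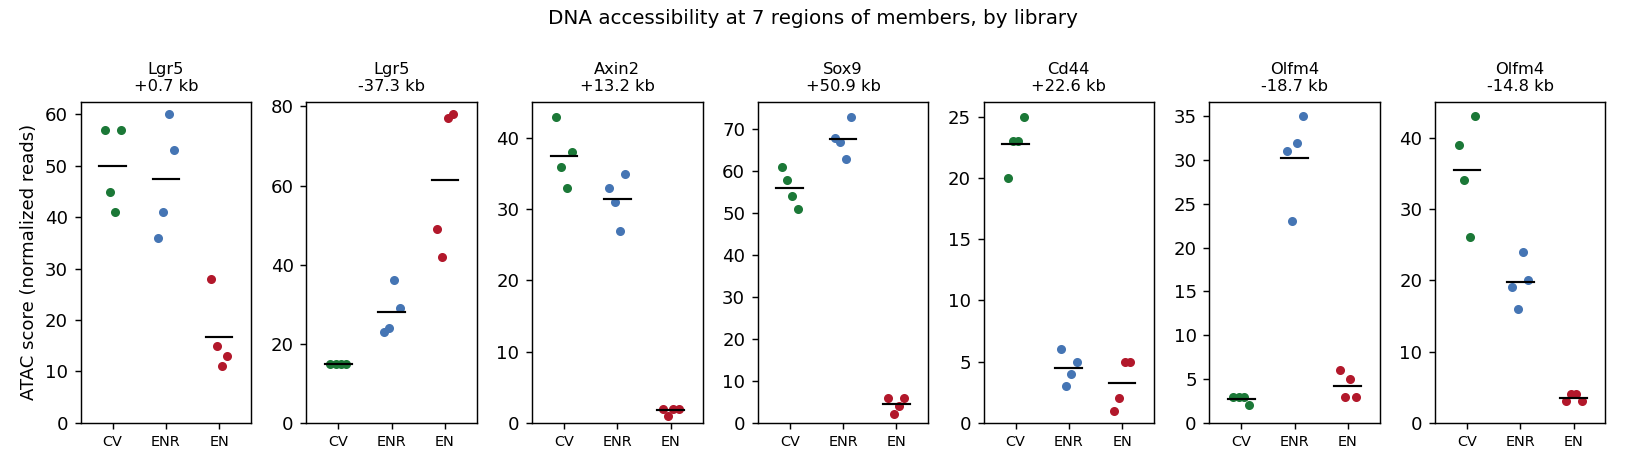
ATAC scores (normalized reads, y axis from 0) are plotted for each library of CV, ENR and EN at 7 regions, with a line at the mean of 4 libraries and the distance from the nearest start site in each title. Axin2 +13.2 kb and Sox9 +50.9 kb are at 1 to 6 in EN, Cd44 +22.6 kb is high in CV alone, Olfm4 −18.7 kb in ENR alone, and Lgr5 −37.3 kb is highest in EN.

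Ephb2 (NM_010142.4, chr4:136203454-136391903, minus strand) and Ephb3 (NM_010143.1, chr16:21204828-21223378, plus strand) encode Eph receptors that sort cells along the crypt. Ephb2 was 256, 242, 242 and 257 CPM in CV libraries, 168, 166, 163 and 165 CPM in ENR libraries and 49.9, 42.6, 54.2 and 46.5 CPM in EN libraries, so it was higher in CV than in ENR (0.59, SE 0.05, edgeR adjusted p = 2.96e-08) and lower in EN (−1.77, SE 0.06, edgeR adjusted p = 1.48e-13). Ephb3 was 48.8, 53.0, 46.9 and 49.2 CPM in ENR, 34.9, 36.2, 35.8 and 36.9 CPM in CV and 2.81, 2.36, 3.03 and 2.16 CPM in EN, and so moved the other way in CV vs ENR (−0.46, SE 0.06, edgeR adjusted p = 9.15e-06). With scaling to the spike-ins the differences were 0.50 (edgeR adjusted p = 0.0212) for Ephb2 and −0.56 (edgeR adjusted p = 0.0123) for Ephb3, neither of them under 0.01, and on copy numbers the Ephb3 difference was −0.19 (limma adjusted p = 0.631). EN retained a larger part of the Ephb2 RNA than of the Ephb3 RNA (EN vs ENR −4.24, SE 0.09, edgeR adjusted p = 3.74e-15 for Ephb3).

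H3K27ac at the main Ephb3 promoter (chr16:21204419-21205917) fell with the RNA, from 109, 92 and 135 in CV and 73, 64 and 76 in ENR to 25, 18 and 15 in EN (EN vs CV −2.49, SE 0.33, limma adjusted p = 4.36e-06). Accessibility of the same region did not fall: ATAC scored 135, 146, 153 and 147 in CV, 152, 150, 131 and 141 in ENR and 182, 168, 174 and 167 in EN, a rise of 0.25 (SE 0.09, limma adjusted p = 0.0334) that was −0.02 after quantile normalization (limma adjusted p = 0.917). At the Ephb2 promoter, ATAC fell by 0.65 (SE 0.19, limma adjusted p = 0.012), a call lost without CV replicate 2 (limma adjusted p = 0.0515), and H3K27ac scored 165, 204 and 224 in CV, 168, 203 and 135 in ENR and 112, 119 and 125 in EN. An H3K4me3 call 60.7 kb from an Ephb3 start site rests on scores of 1 in each EN library against 0 elsewhere.

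Prom1 (chr5:44384864-44493271, minus strand), a membrane glycoprotein also known as CD133, kept, with Ephb2, the largest part of its RNA in EN. NM_008935.2 was 403, 400, 429 and 396 CPM in CV libraries, 229, 228, 242 and 216 CPM in ENR libraries and 65.7, 62.3, 71.0 and 69.5 CPM in EN libraries. It was higher in CV than in ENR (0.83, SE 0.04, edgeR adjusted p = 2.59e-10) and lower in EN than in ENR (−1.77, SE 0.05, edgeR adjusted p = 4.91e-14). XM_006503790.3 was 19.5, 18.3, 20.9 and 13.9 CPM in CV libraries, 8.19, 14.7, 13.5 and 13.5 CPM in ENR libraries and 5.23, 5.35, 3.03 and 4.03 CPM in EN libraries. Its CV and ENR values overlapped, and the difference was not called (0.55, 95% interval 0.19 to 0.91, edgeR adjusted p = 0.0159) unless CV replicate 4 was left out (edgeR adjusted p = 0.00546). Its EN vs ENR difference (−1.49, SE 0.22, edgeR adjusted p = 1.53e-05) was not called on the copy numbers (−0.42, limma adjusted p = 0.202). Counts of the 2 transcripts were divided by the quantifier where they share sequence, so the split between them is uncertain. The promoter (chr5:44491609-44493168) was as open in EN, at 35, 40, 25 and 36, as in CV, at 35, 38, 34 and 43, within the spread between libraries (−0.15, SE 0.16, limma adjusted p = 0.492), while its H3K27ac scored 53, 123 and 101 in CV, 74, 73 and 79 in ENR and 22, 34 and 38 in EN (EN vs CV −1.48, SE 0.34, limma adjusted p = 0.00438).

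**Figure D4:**
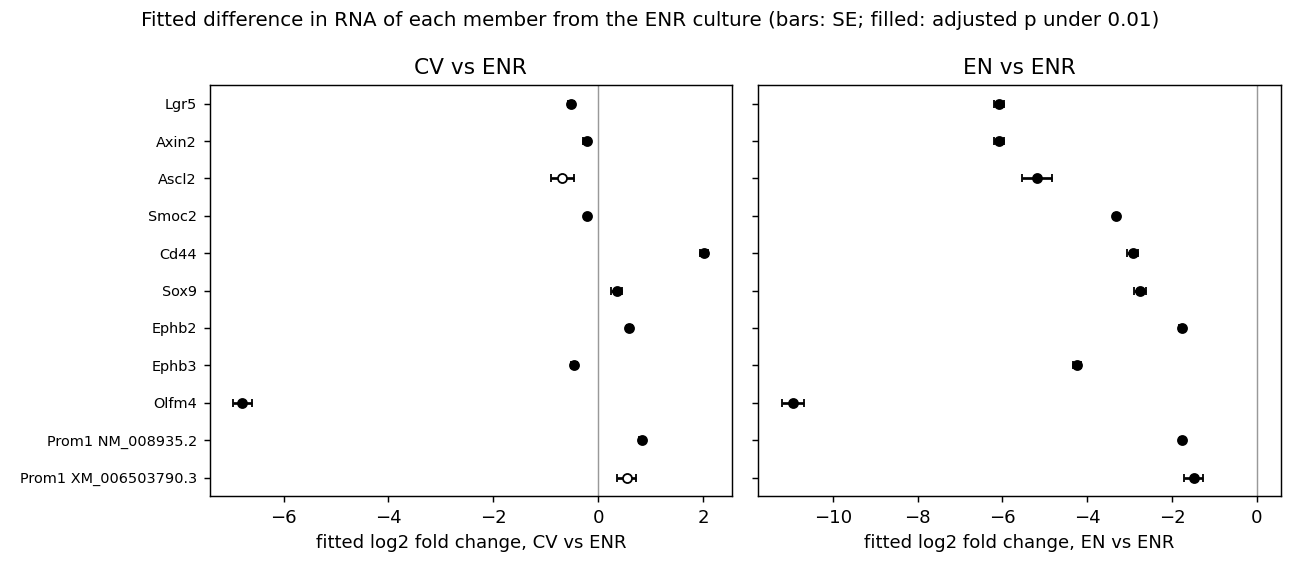
Fitted log2 fold changes with SE bars are plotted on the x axis for each transcript on the y axis, CV vs ENR on the left and EN vs ENR on the right, with filled points at an edgeR adjusted p under 0.01. All points on the right are below 0, from −1.49 for Prom1 XM_006503790.3 to −10.94 for Olfm4, while on the left Cd44 is at 2.02 and Olfm4 at −6.78 (the fitted value of Ascl2 in EN vs ENR depends on the prior count).

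To ask whether the genes moved in step with Lgr5 whatever the scaling between libraries, the log2 ratio of each other transcript to Lgr5 was compared within libraries by a two-sided exact permutation test, 4 libraries against 4, in which the smallest p is 0.0286. Of the 10 ratios, 8 differed between CV and ENR, each with an exact adjusted p of 0.0357. The share of all transcripts whose ratio to Lgr5 differs was not computed, so this count has no background. The change of Lgr5 itself (log2 fold change −0.52 in CV vs ENR) enters every ratio. A transcript that fell less than Lgr5, such as Axin2 or Smoc2, therefore has a higher ratio. The ratio was higher in CV for Cd44 (2.54), Prom1 NM_008935.2 (1.35), Ephb2 (1.11), Prom1 XM_006503790.3 (1.08), Sox9 (0.88), Smoc2 (0.32) and Axin2 (0.30), and lower for Olfm4 (−6.43). Ephb3 (0.06, exact p = 0.257) and Ascl2 (−0.15, exact p = 0.371) were not told apart from Lgr5. So the surface proteins Cd44, Ephb2 and Prom1 and the factor Sox9 gained on Lgr5 in CV, and Olfm4 lost to it.

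Between EN and ENR, 9 of the 10 ratios differed, each with an exact adjusted p of 0.0318. The share over all transcripts was not computed here either. Lgr5 itself changed by −6.08 in this comparison, where the median of all transcripts was −0.01, so a higher ratio is not particular to these genes. Prom1, with 4.75 for XM_006503790.3 and 4.46 for NM_008935.2, and Ephb2, with 4.45, kept most RNA relative to Lgr5, followed by Sox9 (3.48), Cd44 (3.24), Smoc2 (2.90), Ephb3 (2.01) and Ascl2 (1.09). Olfm4 was lower by −4.63, and Axin2 was not told apart from Lgr5 (0.24, exact p = 1.0), a value of −0.33 without EN replicate 2, which had 3 Lgr5 counts. These EN ratios all carry the counting error of 3 to 17 Lgr5 counts. Those of Ascl2, with 0 to 3 counts in EN, and Olfm4, with 2 to 6, also depend on the 0.5 added.

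Among 7999 transcripts with a mean of at least 10 CPM, those whose centred log2 CPM over the 12 libraries lay nearest to Lgr5 were Fignl1, Kntc1, Prim1 and Ifitm3, at root mean square differences of 0.29, 0.31, 0.35 and 0.36. Nearest to Cd44 were Tifa, Inf2, Ptprs and Cldn2, at 0.27, 0.33, 0.38 and 0.39. The claudin Cldn2, a tight junction protein of the crypt, for example was 745 CPM in CV, 311 in ENR and 34.5 in EN. No transcript lay near Olfm4: its nearest were Clca3b, Mptx2, Timeless and Stmn1, at 2.26, 2.27, 2.41 and 2.45.

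Of 50 further genes of the Wnt pathway, 22 were in the table with 1 transcript each, and Rnf43, Znrf3, Notum, Nkd1, Apcdd1, Tcf7 and Myc were not analysed here. In EN vs CV, 10 of the 22 were lower, 9 higher and 3 not called, with a median of −0.02 beside −0.08 over all transcripts, of which 41.2% were lower and 35.2% higher. Against ENR, EN had 8 lower and 8 higher, where 37.2% and 35.5% of all transcripts were, and CV had 3 lower and 7 higher, where 29.8% and 30.2% were. The balance of higher and lower calls depends on the scaling. On copy numbers it was 11 higher and 5 lower in EN vs CV and 13 and 4 in EN vs ENR, with scaling to the spike-ins it was 3 and 10 and 2 and 10, and in CV vs ENR it was 5 and 4 with DESeq2 size factors and 3 and 2 with scaling to the spike-ins. The Wnt ligand Wnt3 was 11.5 CPM in CV, 8.42 in ENR and 1.54 in EN, and Wls, which carries Wnt ligands to the cell surface, was 131.5, 51.5 and 7.45 CPM in that order (EN vs CV −4.12, SE 0.08, edgeR adjusted p = 3.29e-16). Among receptors, the R-spondin receptor Lgr4 was 359, 272 and 212 CPM and fell in EN vs CV (−0.76, SE 0.04, edgeR adjusted p = 1.75e-11), whereas the Wnt receptor Fzd5 was 130, 300 and 453 CPM and rose (1.80, SE 0.04, edgeR adjusted p = 1.69e-15).

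Inside the cell, the β-catenin gene Ctnnb1 was 1433 CPM in CV, 1351 in ENR and 1604 in EN, a change of 0.16 in EN vs CV (SE 0.03, edgeR adjusted p = 0.000143). Of the TCF/LEF factors, Tcf7l2 was 10.7, 14.5 and 22.8 CPM in that order and rose in EN vs CV (1.10, SE 0.14, edgeR adjusted p = 3.39e-06), and Lef1 was 2.51 CPM in CV with no more than 1 count in any ENR or EN library. The D cyclins, known targets of the pathway, fell in EN: Ccnd1 was 128, 165 and 7.42 CPM and Ccnd2 536, 217 and 44.0 CPM. Wnt3, Wls, Ccnd1 and Ccnd2 were chosen after their values were seen. The cyclins split in CV vs ENR, Ccnd2 rising by 1.30 (SE 0.05, edgeR adjusted p = 6.43e-12) and Ccnd1 falling by 0.37 (SE 0.04, edgeR adjusted p = 2.29e-06).

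**Figure D5:**
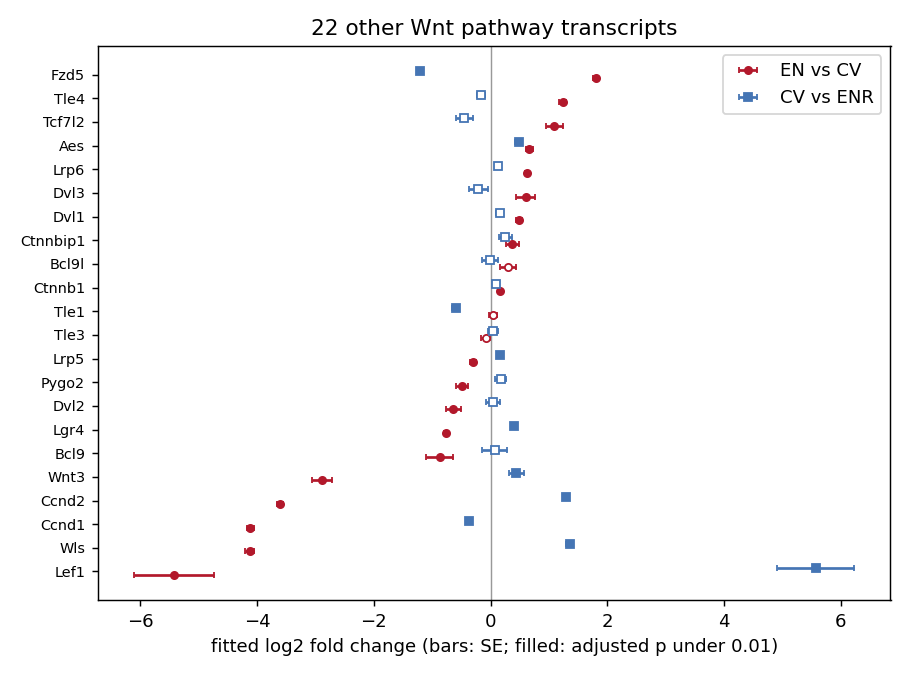
Fitted log2 fold changes with SE bars are plotted on the x axis for the 22 further Wnt pathway transcripts on the y axis, EN vs CV as red circles and CV vs ENR as blue squares, filled at an edgeR adjusted p under 0.01. Fzd5 has the largest rise in EN vs CV at 1.80, Wls, Ccnd1 and Ccnd2 fall to between −4.12 and −3.61, and the Lef1 values depend on the prior count since ENR and EN libraries hold at most 1 count.

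The 7 further Eph and ephrin genes in the table (8 transcripts, of 15 genes listed) gave 5 transcripts called higher, 2 lower and 1 not called in EN vs CV, with a median of 1.31, against 35.2% higher and 41.2% lower over all transcripts. Efnb2 counts here with 2 transcripts. The ephrin ligand Efnb2 had the largest rise, with 5.35 CPM in CV, 17.8 in ENR and 55.3 in EN for XM_011242036.2 (EN vs CV 3.37, SE 0.13, edgeR adjusted p = 1.67e-12) and 18.8, 37.2 and 148 CPM for NM_010111.5, and Efnb1 was 51.6, 72.7 and 103 CPM (1.00, SE 0.07, edgeR adjusted p = 4.45e-09). The falls were the ligand Efna3 (54.8, 9.06 and 7.05 CPM, −2.97) and the receptor Epha2 (82.8, 41.5 and 14.8 CPM). Against ENR, EN had 5 higher and 2 lower (median 0.57), where 35.5% and 37.2% of all transcripts were, and CV had 2 higher and 5 lower (median −0.55), where 30.2% and 29.8% were.

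Of 23 further stem cell markers, 16 were in the table with 17 transcripts, and all 17 were lower in EN vs CV (median −3.36) and in EN vs ENR (median −4.14), where 41.2% and 37.2% of all transcripts were. On copy numbers 16 and 14 of the 17 were called lower. The smallest fall in EN vs CV was that of Lrig1, an inhibitor of ErbB receptors, at 290 CPM in CV, 362 in ENR and 132 in EN (−1.14, SE 0.04, edgeR adjusted p = 7.1e-13), and Slc12a2, an ion cotransporter, went from 948 and 1430 to 43.7 CPM (−4.43, SE 0.04, edgeR adjusted p = 1.62e-18). In CV vs ENR this list split too, with 6 higher, 9 lower and 2 not called (median −0.25), against 30.2% higher and 29.8% lower over all transcripts, and it was 4 higher and 3 lower on copy numbers. Among the higher was Tnfrsf19, a TNF receptor family member, at 11.8 CPM in CV, 0.399 in ENR and 0 counts in each EN library, and among the lower Clca3b, at 41.6 CPM in CV against 210 in ENR (−2.34, edgeR adjusted p = 2.18e-13). Lrig1, Slc12a2 and Clca3b were chosen after their values were seen.

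Hnf4g, a nuclear receptor of enterocytes, was profiled in 1 library per culture, so its reads near these genes have no replicate check. Over all regions the libraries held 84340 reads in CV, 352600 in ENR and 1816497 in EN. Values per 10000 are shares of each library's own reads in regions. They cannot compare the amount of Hnf4g binding between cultures, since a share does not separate bound from background reads. The paper reports Hnf4g binding as near absent in CV, with many peaks in EN. Reads in the regions of Axin2 came to 10.7 per 10000 in CV (95% Poisson interval 8.58 to 13.1), 10.8 in ENR (9.72 to 11.9) and 13.7 in EN (13.1 to 14.2), the highest of the 10 genes. Of the 2480 EN reads, 2158 fell in 1 region that lies 88697 bp from the nearest Axin2 start site, outside the gene (chr11:108872895-108873489). At the other genes the EN value was between 0.231 per 10000 for Cd44 and 2.71 for Ephb2. At the region 37.3 kb upstream of Lgr5, there were 4 reads in CV, 3 in ENR and 46 in EN, or 0.474 (95% interval 0.129 to 1.21), 0.0851 (0.0176 to 0.249) and 0.253 (0.185 to 0.338) per 10000, and the interval of each culture overlapped those of the others. Ascl2 had 0 of the 84340 CV reads, which allows at most 0.356 per 10000, 5 reads in ENR and 64 in EN (0.352 per 10000). Intervals and this limit cover counting error only.

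Across the 156 regions, 22 of the 300-base windows at their centres held the TCF/LEF letters (14.1%), against 12.8% of 94340 windows over all regions. The letters GTGGGAA, read by the Notch effector RBPJ, were in 9 windows (5.77%) against 6.47%, and CAAAGTCCA, read by HNF4 factors and overlapping the TCF/LEF letters in its first bases, in 3 (1.92%) against 2.28%. The shares near the genes were thus close to those over all regions. A match is a run of letters and no measured binding site.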

How the data were processed

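Per the labels and the study's methods, strand-specific, rRNA-depleted RNA libraries with ERCC spike-ins were quantified with kallisto by the authors against an index restricted to transcripts whose protein was quantified. The table holds estimated counts, TPM and a signal that the authors deposited as mRNA copies scaled to the spike-ins. Genes outside that index were not analysed here. ATAC and ChIPmentation reads were aligned to mm9 with BWA, duplicates were removed with Picard, and regions were called with MACS2, as the submitters' processing notes and the methods say. The region scores deposited by the authors are normalized reads per region rounded to whole numbers, with wider regions for H3K27me3, and the Hnf4g values are raw read counts per region as deposited. DESeq2 is named in the notes. The column names of the region tables do not state a coordinate base, and coordinates are printed as the files give them.

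Expected counts were rounded, spike-ins were left out of library sizes, and transcripts counted above 0 in 4 or more libraries were tested with edgeR 4.0.16 (TMM, quasi-likelihood) over the 12 libraries, with calls at a Benjamini-Hochberg adjusted p under 0.01. Scores above 0 in at least 3 libraries were tested with limma 3.58.1 on log2(score + 1) with a mean-variance trend, each dataset in a fit of its own, with calls at 0.05. Fold changes on that scale understate the change of low scores, and the read depth behind the scores is unknown. Ratios to Lgr5 used log2 counts with 0.5 added and were tested with scipy 1.17.1. DESeq2 1.42.0, TPM, copy numbers, spike-in scaling, other filters, a block on the replicate number and leaving out 1 library in turn were alternatives. R was 4.3.3 and Python 3.11.15. The edgeR test and the limma test were also run on simulated data with known changes, for EN vs CV with RNA counts and ATAC-like scores. Scores like those of the histone marks were not simulated.

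In ATAC, libraries with the same number deviated together (r 0.141 to 0.633 over 12 pairs, median 0.34). Pairs with different numbers had a median r of −0.22 (−0.668 to 0.407 over 36 pairs). The shared deviation thus went with the number, and some pairs with different numbers deviated together too, such as CV1 with EN2 (0.356) and CV4 with EN3 (0.407). A fit without a block leaves this shared deviation in the spread. ATAC calls and p-values in the text come from the fit without a block. The blocked fit was an alternative and changed no call of a named region. Start sites, gene bodies and sequence came from the mm9 genome with GENCODE annotation. Distances run to the nearest of the annotated start sites of a gene, which can differ from its outer end. The rule for naming covered every transcript and promoter region of the 10 genes. It also covered the region with the lowest p per gene and dataset in EN vs CV where called. Further items were the 4 transcripts most like Lgr5, Cd44 and Olfm4, the largest rise and fall per list, and fixed Wnt regulators. Others are marked as chosen after their values were seen. Not every region under this rule is described. The genes and lists were chosen with earlier results of these data known. RNA of Hnf4g knockout and wild-type organoids and the further histone libraries were not used here. The sequences of 2 regions are not reported here.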

Additional observations from a re-analysis of the deposited data

Results flagged for a closer look

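Each value here is the gap of the farthest library to its nearest neighbour, as a share of the whole range of the 4 libraries of a culture. Chance gives such a sample far from the others in about 1 of 20 groups, and 33 RNA and 75 ATAC groups were checked. In RNA, 1 library stood apart for Lgr5 in EN (0.916, replicate 2 low at 0.642 CPM), Axin2 in EN (0.909, replicate 2 high at 1.71 CPM), Cd44 in EN (0.875, replicate 2 low at 2.78 CPM), Smoc2 in CV (0.857, replicate 4 high at 325 CPM) and Olfm4 in CV (0.865, replicate 4 high at 20.5 CPM). EN replicate 2 was thus the library apart for 3 genes and CV replicate 4 for 2. Without EN replicate 2 the log2 fold change in EN vs ENR was −5.87 for Lgr5, −6.24 for Axin2 and −2.79 for Cd44.

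In ATAC, 1 library stood apart at the Lgr5 start site region in ENR (0.833), the Ascl2 promoter in EN (0.909, with 24 against 13 to 14) and the Sox9 region 0.4 kb from its start site in EN (0.857, with 14 against 7 to 8). The value was 1.0 at the Axin2 region 0.4 kb from its nearest start site in CV and ENR, at Axin2 +13.2 kb in EN and at Olfm4 −18.7 kb in CV. The scores of the 4 libraries differ by 1 at most there.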

How the results depend on the processing

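All 11 transcripts were lower in both EN comparisons under every alternative, except Prom1 XM_006503790.3, which was lower in EN vs ENR but not called on copy numbers. In CV vs ENR, 9 transcripts were called, 4 on copy numbers and 4 with spike-in scaling, and Axin2 turned from −0.22 to 0.0169 on copy numbers. The Wnt list gave 4 and 5 calls under these settings in place of 10, and the further stem markers 7 and 9 in place of 15. Copy numbers moved the median of all transcripts to 0.69, 1.02 and 0.25 (EN vs CV, EN vs ENR, CV vs ENR), spike-in scaling to −0.49, −0.52 and −0.10. The cause was not tested.

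With 1 library left out, calls in EN vs CV, EN vs ENR and CV vs ENR were 11 to 11, 11 to 11 and 7 to 11 transcripts, 16 to 19, 15 to 17 and 8 to 12 of the Wnt list, and 17 to 17, 17 to 17 and 13 to 15 further stem markers. Region calls were 62 to 72, 55 to 68 and 15 to 25 for ATAC, 14 to 25, 5 to 10 and 0 to 4 for H3K27ac, 2 to 20, 7 to 20 and 0 to 8 for H3K4me3, and 0 to 1, 0 to 0 and 0 to 1 for H3K27me3. Ratios to Lgr5 gave 0 to 0 calls, since the smallest p was then 0.0571.

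Same-numbered libraries did not consistently deviate together in RNA (r −0.125 to 0.0696), H3K27ac (−0.127 to 0.166), H3K4me3 (−0.514 to 0.469) or H3K27me3 (−0.0755 to 0.112). These correlations cannot show whether libraries with the same number share a harvest. With the replicate block, ATAC gave 73, 76 and 22 calls in place of 72, 68 and 21, H3K27ac 0, 0 and 0 (limma, 38, 20 and 19 at an unadjusted p under 0.05), H3K4me3 5 in EN vs CV and 0 in CV vs ENR (23 unadjusted), and H3K27me3 0 in EN vs CV (22 unadjusted). This block left 0 calls over all regions for H3K27ac in each comparison and for H3K4me3 in CV vs ENR. Such counts of 0 are therefore not particular to these genes. Paired ratios to Lgr5 gave 0 and 0 calls, with a smallest p of 0.125.

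At an adjusted p under 0.01, ATAC gave 12 calls in CV vs ENR in place of 21, H3K27ac 14 in EN vs CV and 1 in place of 2 in CV vs ENR, H3K4me3 7, 5 and 0 (32 unadjusted) in place of 19, 15 and 4, and H3K27me3 0 in EN vs CV (22 unadjusted). With no trend, H3K27ac gave 11, 0 (34 unadjusted) and 0 (27 unadjusted) in place of 26, 8 and 2, and H3K27me3 0 in EN vs CV (20 unadjusted). Over all regions with no trend, H3K27ac gave 924, 1 and 0 in place of 6627, 1480 and 1723. For H3K27me3 in EN vs CV it was 0 in place of 499. Quantile normalization gave 0 for H3K27ac (19 unadjusted) and 1 for H3K4me3 in CV vs ENR, and turned Ephb3 promoter ATAC from 0.25 to −0.0151. A mean score of at least 5 gave 1 for H3K27ac and 0 for H3K4me3 (10 unadjusted) in CV vs ENR. EN levels of Lgr5, Axin2, Ascl2 and Olfm4 rest on at most 17 counts, so folds against EN there are imprecise.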

Other observations

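The marker lists of other cell types gave these largest fitted changes in EN vs CV, as log2 fold changes: Clca1 8.56 among goblet cell transcripts, Gcg 8.32 among enteroendocrine, Dclk1 6.46 among tuft cell and Treh 7.53 among enterocyte transcripts, where Ada fell by 0.96. Among Paneth cell transcripts Mptx2 rose by 1.30 and Mmp7 fell by 2.79, and among proliferation transcripts Mcm3 fell by 6.36. Among mesenchymal and immune transcripts, the pan-leukocyte gene Ptprc was 0.0331 CPM in CV, 1.16 in ENR and 2.64 in EN, and the intermediate filament gene Vim was 2.96, 7.96 and 23.3 CPM.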
